A study of Mus musculus with 15 samples.

Results

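The 29 genes described here are the transcription factor TFEB, its relatives TFE3 and MITF, and lysosome and autophagy genes commonly listed as their targets, followed in mouse kidney. They were taken by gene symbol, from a list drawn up when earlier results of these data were known, and they are 29 of the 23284 genes of the deposited table. Messenger RNA was sequenced from 15 kidney samples of wild-type (WT) mice, 5 each for Vehicle, L-ala (L-alanine) and D-ala (D-alanine), all with a time of 2 h. The labels state no strain, age, dose, route or vehicle composition, so the doses of the 2 amino acids cannot be said to match. Nothing in the labels ties the 5 samples of a group to separate animals, and p-values then measure only the spread between samples, which may be technical. Libraries are numbered 1 to 5 within a group, in accession order, and the numbers are names only.

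TFEB, TFE3 and MITF are basic helix-loop-helix leucine zipper factors of the MiT/TFE family. In fed cells the kinase complex mTORC1, held on the lysosome surface by Rag GTPases, phosphorylates TFEB and keeps it in the cytoplasm. When amino acids run short or lysosomes are damaged, TFEB enters the nucleus and binds a promoter sequence built around CACGTG, the core of the CLEAR element (coordinated lysosomal expression and regulation). Its targets include lysosomal hydrolases, lysosomal membrane proteins, autophagy genes and genes of the Rag pathway itself. Proximal tubule cells of the kidney take up filtered protein and digest it in lysosomes, and are rich in these transcripts. L-alanine and D-alanine are mirror images of each other at the alpha carbon, and the enzyme D-amino acid oxidase of the proximal tubule breaks down the D form.

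The promoter sequences that hold the TFEB core motif are shown first, for those of the genes that have it. A RefSeq table on GRCm38.p6 gave windows from 250 bases before to 50 bases after a transcription start for 25 of the 29 genes. Ctsb, Ctsh, Npc1 and Map1lc3a had no entry. CACGTG, which reads the same on both strands, stood in the window of 9 of the 25 genes, or 36%, against 8.09% of all 27025 genes with a window and 12.06% of the 8477 tested genes with a window. The 9 were Ctsa, Ctsd, Ctsl, Fnip1, Gla, Glb1, Lamp1, Mcoln1 and Rragc. The longer forms TCACGTGA and GTCACGTG, which overlap it and were searched on both strands, stood in 4 genes (16%, against 1.12% of all genes and 2.38% of tested genes) and 6 genes (24%, against 2.55% and 5.06%). TCACGTGA with a further G before it and C after it, the full CLEAR palindrome of 10 bases, stood in none of the 25, against 0.37% of all genes and 0.86% of tested genes. The stretches below lie within the 250 bases before the start used by RefSeq, read 5′ to 3′ on the gene's strand, with each CACGTG in capitals. Lamp1 (plus strand, chr8:13159085-13159160) is shown for its 4 copies within 76 bases, Gla (minus strand, chrX:134601179-134601247) for its 2 copies, Ctsa (plus strand, chr2:164833746-164833772) and Fnip1 (plus strand, chr11:54438089-54438124) because their transcripts changed with both amino acids, and Glb1 (plus strand, chr9:114401015-114401050) and Rragc (plus strand, chr4:123917306-123917341) because theirs passed no test.
Lamp1: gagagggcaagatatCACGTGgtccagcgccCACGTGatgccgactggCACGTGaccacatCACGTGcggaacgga
Gla: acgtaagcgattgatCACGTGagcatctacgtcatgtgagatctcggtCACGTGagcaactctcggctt
Ctsa: caatgagcaaactgtCACGTGatgcag
Fnip1: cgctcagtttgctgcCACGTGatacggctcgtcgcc
Glb1: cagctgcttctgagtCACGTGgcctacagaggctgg
Rragc: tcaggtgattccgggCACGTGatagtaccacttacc
A match is a description of letters and not a measured binding site. The genes were taken as listed targets of these factors, so the higher share of the motif may follow in part from that choice. Of the 9 genes with the motif, 3 changed in at least 1 of the comparisons below (Ctsa, Fnip1 and Lamp1), and of the 16 without it, 6 did. Of all tested genes, 26.1% were called in at least 1 of the 3.

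All 29 genes had at least 1 FPKM in 5 or more libraries, the filter that 11781 genes passed. FPKM are fragments scaled to transcript length and to the depth of the library, so levels of different genes can be set side by side. Over the 15 libraries the lysosome shell protein Lamp1 was highest, at a mean of 871.8 FPKM, followed by the autophagosome protein Gabarapl1 at 795.7 FPKM. The protease Ctsl (483.9 FPKM), the shell protein Lamp2 (476 FPKM), the protease Ctsd (436 FPKM) and the cargo receptor Sqstm1 (374 FPKM) came next. These 6 lay above 97.9% or more of the tested genes. Most other hydrolases stood between 93.14 FPKM (Glb1) and 211.5 FPKM (Ctsh), but Hexa (40.02 FPKM), Gusb (17.32 FPKM) and Gla (2.606 FPKM) were lower. The factors themselves were modest, with Tfeb at 12.05, Tfe3 at 9.528 and Mitf at 2.693 FPKM. Their upstream regulators were of the same order, from Rragc at 33.17 FPKM to Fnip1 at 8.71 FPKM. In vehicle the coefficient of variation of a gene ran from 3.07% for Lamp1 to 15.3% for Gla, which sets the scale against which the differences below are read.

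**Figure D1:**
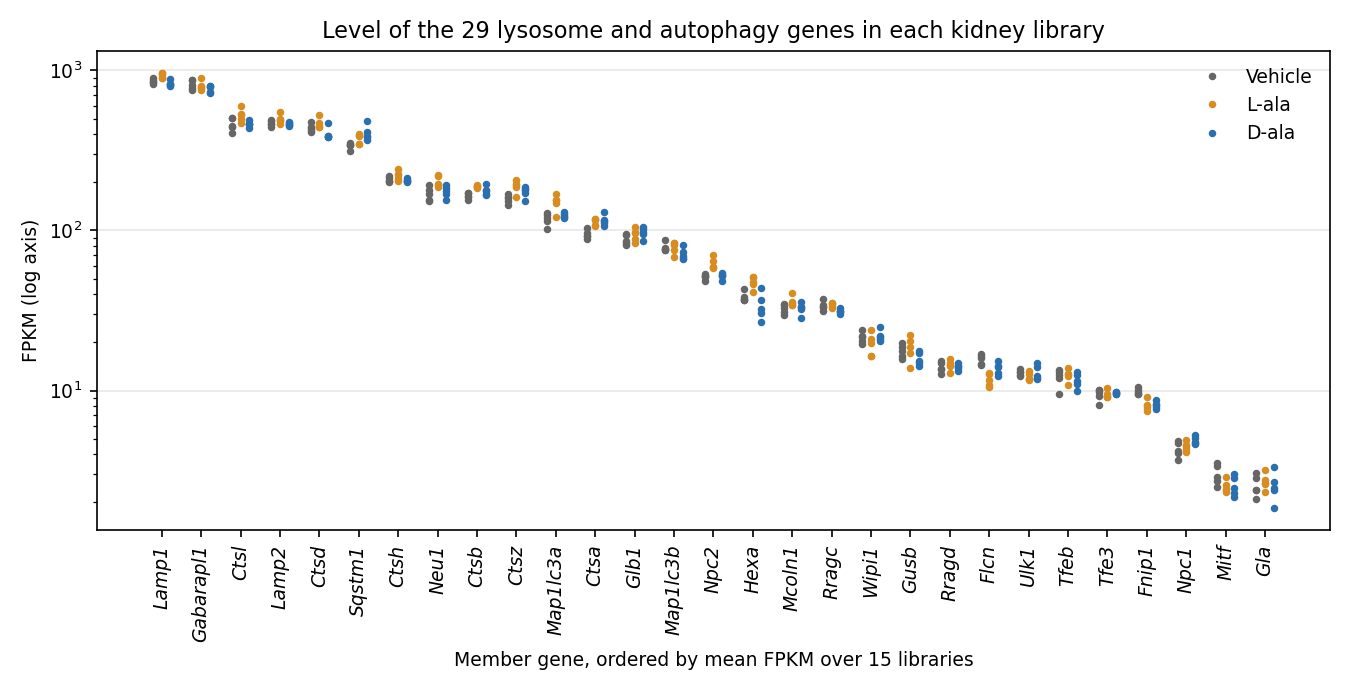
FPKM (log axis) of the 29 genes, ordered by mean FPKM over the 15 libraries, in each library, coloured by group. The groups of most genes lie on top of each other, with Lamp1 at 871.8 FPKM and Gla at 2.606 FPKM as the highest and lowest means.

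An estimate of depth, read from gaps and doubled values among the low whole numbers of the deposited count column, came to 7.57 to 10.9 M reads in 11 libraries and could not be made in the other 4. Proximal tubule markers such as Slc34a1 and Miox were abundant, as the tissue label requires, and 10 of 10 were tested. Their mean log2(FPKM + 1) was 9.33 in vehicle, 9.47 with L-ala and 9.43 with D-ala (exact two-sided permutation tests against vehicle, p = 0.0159 and 0.0476, not adjusted for the 27 such tests). Summed FPKM per library came to 631 to 692 kFPKM (kilo-FPKM) in vehicle, 695 to 844 with L-ala and 669 to 713 with D-ala, so the L-ala totals lay above all vehicle totals. In whole-tissue RNA, fewer cells of a type and less RNA per cell cannot be told apart.

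With D-ala, 2 of the 29 genes rose against vehicle, the protease Ctsa and the receptor Sqstm1, and 1 fell, the folliculin partner Fnip1. Of all tested genes, 11.5% were called in this comparison (6.53% up and 4.92% down), so the share of the 29, 10.3%, was near the background. The median log2 fold change of the 29 was 0.0067, beside 0.0011 for all tested genes, with 15 higher and 14 lower. The groups did not overlap for 3 of the 29, against 10.9% of tested genes. At an unadjusted p under 0.05, 6 of the 29 passed, beside 3126 of the 11781 tested genes. A call here means an adjusted p under 0.05 by limma on log2(FPKM + 1), with Benjamini-Hochberg adjustment over all tested genes. Without vehicle library 4, D-ala library 1 or D-ala library 2 the rises were 1 in place of 2. With the trend of each library's values over GC content taken out, the fall was not called.

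With L-ala, 6 of the 29 genes rose against vehicle and 2 fell. The 6 were the proteases Ctsa, Ctsb and Ctsz, the sialidase Neu1, the cholesterol carrier Npc2 and the autophagosome protein Map1lc3a. The 2 were folliculin (Flcn) and its partner Fnip1. This was 27.6% of the 29, beside 11% of all tested genes (6.48% up and 4.53% down). The 29 had a median log2 fold change of 0.078, beside 0.0070 for all tested genes, with 22 higher and 7 lower. An unadjusted p under 0.05 was passed by 11 of the 29, beside 3590 of the 11781 tested genes. The groups did not overlap for 5 of the 29, against 7.24% of tested genes. None of the 6 rises passed when the libraries were quantile normalized, which gives every library one distribution of values. The median of the 29 was then -0.014, with 14 higher and 15 lower, while 3 genes were called down (Flcn, Fnip1 and Gabarapl1). In that setting the rises among all called genes made up 40.7%, in place of 58.8%. Single libraries also bore on the count, since 3 of the 6 rises passed without vehicle library 1, 1 without vehicle library 4 and 2 without L-ala library 4. Without vehicle library 4, 1 of the 2 falls passed.

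Between the isomers, none of the 29 was higher with D-ala than with L-ala by the test, and 4 were lower: Hexa, Npc2, Lamp1 and Map1lc3a. This was 13.8% of the 29, beside 13.7% of all tested genes (7.01% up and 6.66% down), so the count was near the background. The median was -0.098, beside -0.0090 for all tested genes, with 10 higher and 19 lower. An unadjusted p under 0.05 was passed by 9 of the 29, beside 3632 of the 11781 tested genes. The groups did not overlap for 3 of the 29, against 9.11% of tested genes. Flcn was called higher with D-ala when L-ala library 3, L-ala library 5 or D-ala library 1 was left out, which gave counts of 1, 2 and 1 rises, the other one without L-ala library 5 being Wipi1. The 4 falls became 2 without any one of L-ala libraries 2 and 4 and D-ala libraries 1, 3, 4 and 5. Each comparison shares a group with the other two, so the 3 counts are not independent. Of the 87 results, 15 were called, and they fell on 11 genes. The largest group difference in either direction was 1.393-fold, for Hexa.

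**Figure D2:**
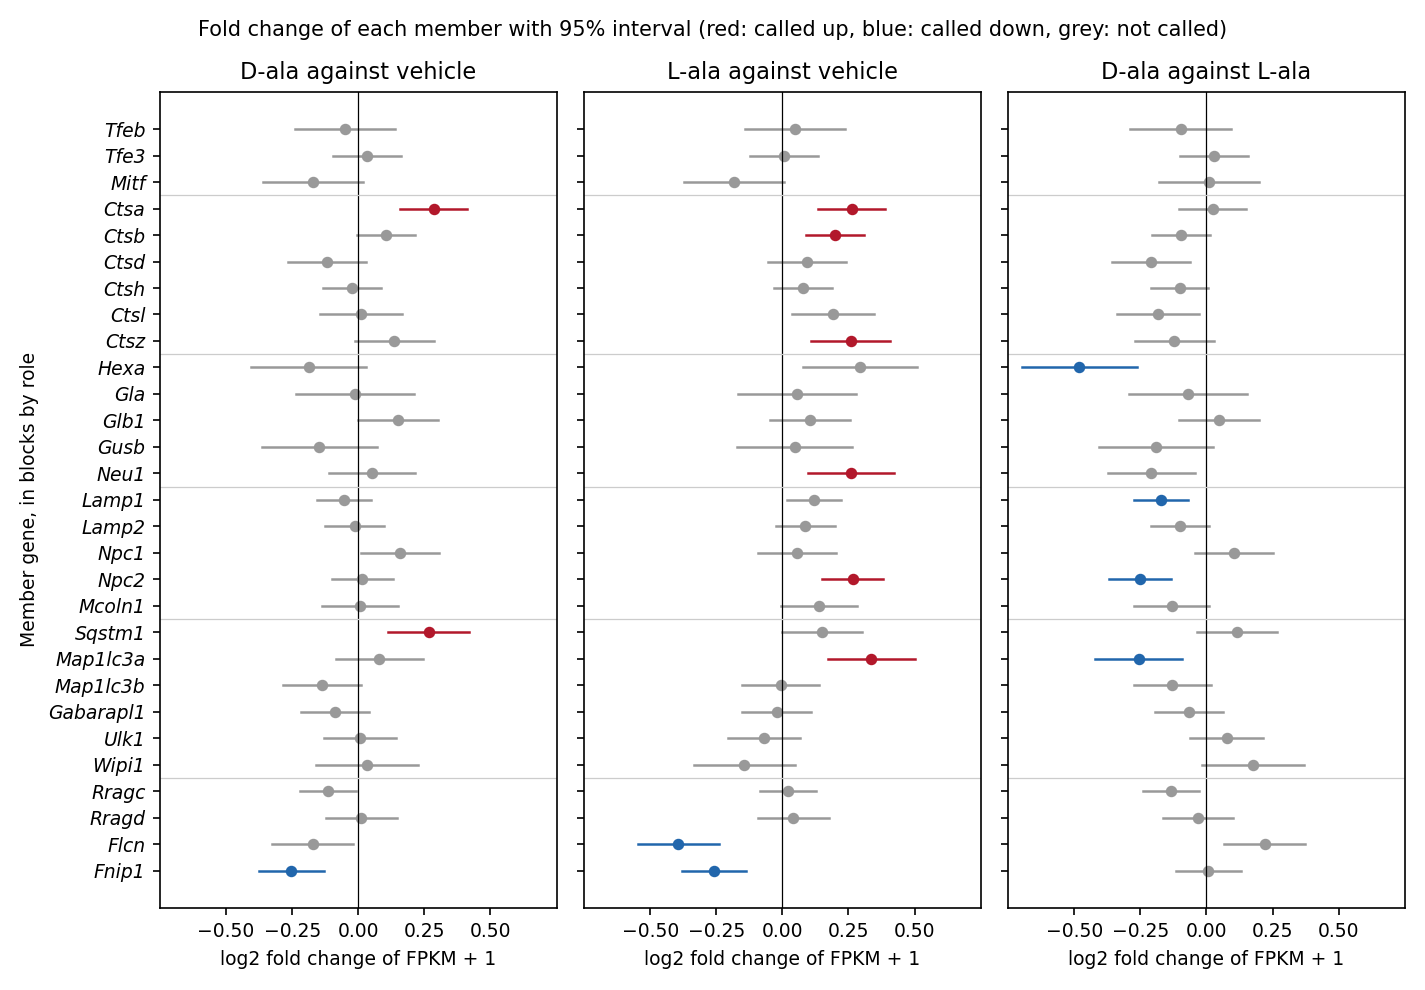
log2 fold change of FPKM + 1 with its 95% interval for the 29 genes in the 3 comparisons, with called genes in colour. All lie within ±0.48, and the L-ala panel leans to the right for the lysosomal genes while Flcn and Fnip1 lie to the left.

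Of the MiT/TFE factors, neither Tfeb nor its relatives passed the test in any comparison. Tfeb, the factor itself (chromosome 17, 47737030 to 47792419, plus strand, GENCODE M21 on GRCm38, from which all gene positions here come), stood at 11.98, 13.03, 13.37, 9.497 and 12.52 FPKM in the vehicle libraries. It stood at 12.4, 12.7, 13.9, 12.6 and 10.8 FPKM with L-ala and at 10, 10.98, 11.48, 12.53 and 12.99 FPKM with D-ala. The groups overlapped throughout, and the lowest library of all was vehicle library 4. The log2 fold change was -0.051 for D-ala (SE 0.090, limma adjusted p = 0.769, 95% interval -0.24 to 0.14) and 0.047 for L-ala (SE 0.090, adjusted p = 0.749, interval -0.14 to 0.24). Tfe3, a broadly expressed relative, had means of 9.45 ± 0.844, 9.47 ± 0.554 and 9.67 ± 0.118 FPKM (SD, n = 5) in vehicle, L-ala and D-ala. Mitf, best known from pigment cells, was 2.51 to 3.54 FPKM in vehicle, 2.31 to 2.90 with L-ala and 2.15 to 3.01 with D-ala. Its log2 fold changes were -0.17 with D-ala and -0.18 with L-ala (limma adjusted p = 0.234 and 0.175). Pigment cell markers summed to at most 0.718 FPKM in any library, and Tyrp1 was at 0 in all 15. Transcript levels do not show where in the cell the TFEB protein was.

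Among the 6 cathepsins, proteases of the lysosome, 1 rose with D-ala and 3 with L-ala, and none differed between the isomers. Ctsa, cathepsin A, a carboxypeptidase that also protects Glb1 and Neu1 in a complex (chromosome 2, 164832873 to 164841032, plus strand), was at 92.3, 92.6, 97.04, 88.04 and 103.3 FPKM in vehicle. It was at 108.7, 107.4, 118.6, 117.8 and 116.0 FPKM with L-ala and at 114.0, 130.7, 110.9, 107.3 and 115.9 FPKM with D-ala. Every library of either amino acid lay above every vehicle library. The mean of 94.7 ± 5.79 FPKM in vehicle (SD, n = 5) became 115.8 ± 8.95 with D-ala, which is 0.29 on the log2 scale (SE 0.060, limma adjusted p = 0.00615). With L-ala it was 113.7 ± 5.28 FPKM, or 0.26 on the log2 scale (SE 0.060, adjusted p = 0.0167). The isomers differed by 0.023 (interval -0.10 to 0.15, adjusted p = 0.824). The D-ala rise of Ctsa was called in all 26 alternative settings. The L-ala rise was lost under quantile normalization (adjusted p = 0.187) and without vehicle library 4 (0.055). Exons of Ctsa overlap those of Neurl2 and Pltp on the opposite strand, and the use of strand in counting is not given. Neurl2 had log2 fold changes of -0.11 with D-ala (adjusted p = 0.588) and -0.40 with L-ala (adjusted p = 0.0331). For Pltp they were -0.17 (0.512) and -0.46 (0.0505). Whether reads of these 2 genes entered the Ctsa values was not tested. The same limit holds for 5 other genes called below, whose exons overlap an opposite-strand gene: Ctsb with Fdft1, Ctsz with Nelfcd, Hexa with Tmem202, Lamp1 with Grtp1 and Sqstm1 with Mrnip. Of these partners, Fdft1 had a log2 fold change of 0.15 with L-ala (adjusted p = 0.258), and Grtp1 differed by -0.19 between D-ala and L-ala (adjusted p = 0.135). Both lay in the direction of the gene they overlap, at 0.20 for Ctsb and -0.17 for Lamp1. No value is given here for Tmem202, Nelfcd or Mrnip.

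Ctsb, cathepsin B, a cysteine protease (chromosome 14, 63122462 to 63145923, plus strand), was at 161.2, 163.5, 171.1, 154.2 and 172.5 FPKM in vehicle and at 184.7, 190.6, 192.9, 190.6 and 186.2 FPKM with L-ala. The D-ala libraries were at 179.6, 195.3, 168.6, 165.9 and 176.2 FPKM. The L-ala libraries lay in a narrow band above all vehicle libraries, and the D-ala libraries spread over both. On the log2 scale the change was 0.20 with L-ala (SE 0.052, limma adjusted p = 0.0262) and 0.10 with D-ala (SE 0.052, adjusted p = 0.211). The difference between isomers was -0.095 (interval -0.20 to 0.015, adjusted p = 0.224). The L-ala rise of Ctsb was not called without vehicle library 1 (0.0521), 2 (0.0514) or 4 (0.0807) or L-ala library 3 (0.0531) or 4 (0.0589), nor under quantile normalization (0.71).

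Ctsz, cathepsin Z, a carboxypeptidase (chromosome 2, 174427493 to 174439039, minus strand), was at 159.6, 152.2, 161.4, 145.1 and 169.8 FPKM in vehicle. It was at 191.9, 187.4, 196.4, 207.4 and 162.9 FPKM with L-ala and at 180.4, 187.2, 170.7, 151.8 and 178.2 FPKM with D-ala. L-ala library 5 fell inside the vehicle range and the other 4 lay above it. This was a log2 difference of 0.26 with L-ala (SE 0.071, limma adjusted p = 0.032) and 0.14 with D-ala (SE 0.071, adjusted p = 0.232). This call was among the least secure, since it was lost without vehicle library 1 (0.0516), 2 (0.0663) or 4 (0.0944) and without L-ala library 1 (0.0659), 3 (0.0665) or 4 (0.0891). It was also lost with quantile normalization (0.264), with only the 2 groups fitted (0.0567) and with the length trend removed (0.0556). The aspartyl protease Ctsd, the aminopeptidase Ctsh and the cysteine protease Ctsl passed no test against vehicle. Ctsl was at 405.0 to 507.7 FPKM in vehicle, 470.8 to 601.4 with L-ala (log2 fold change 0.19, adjusted p = 0.0917) and 439.0 to 488.5 with D-ala (0.010, adjusted p = 0.956). Ctsd was at 410.8 to 478.7 FPKM in vehicle, 440.8 to 526.7 with L-ala and 382.2 to 472.8 with D-ala. Its difference of D-ala from L-ala, -0.21 (SE 0.070), just missed the threshold at an adjusted p of 0.0564. It passed in 3 of 26 alternatives: without D-ala library 2 (-0.27, adjusted p = 0.0176), with the GC trend removed (-0.22, 0.0455) and with both trends removed (-0.21, 0.0492).

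**Figure D3:**
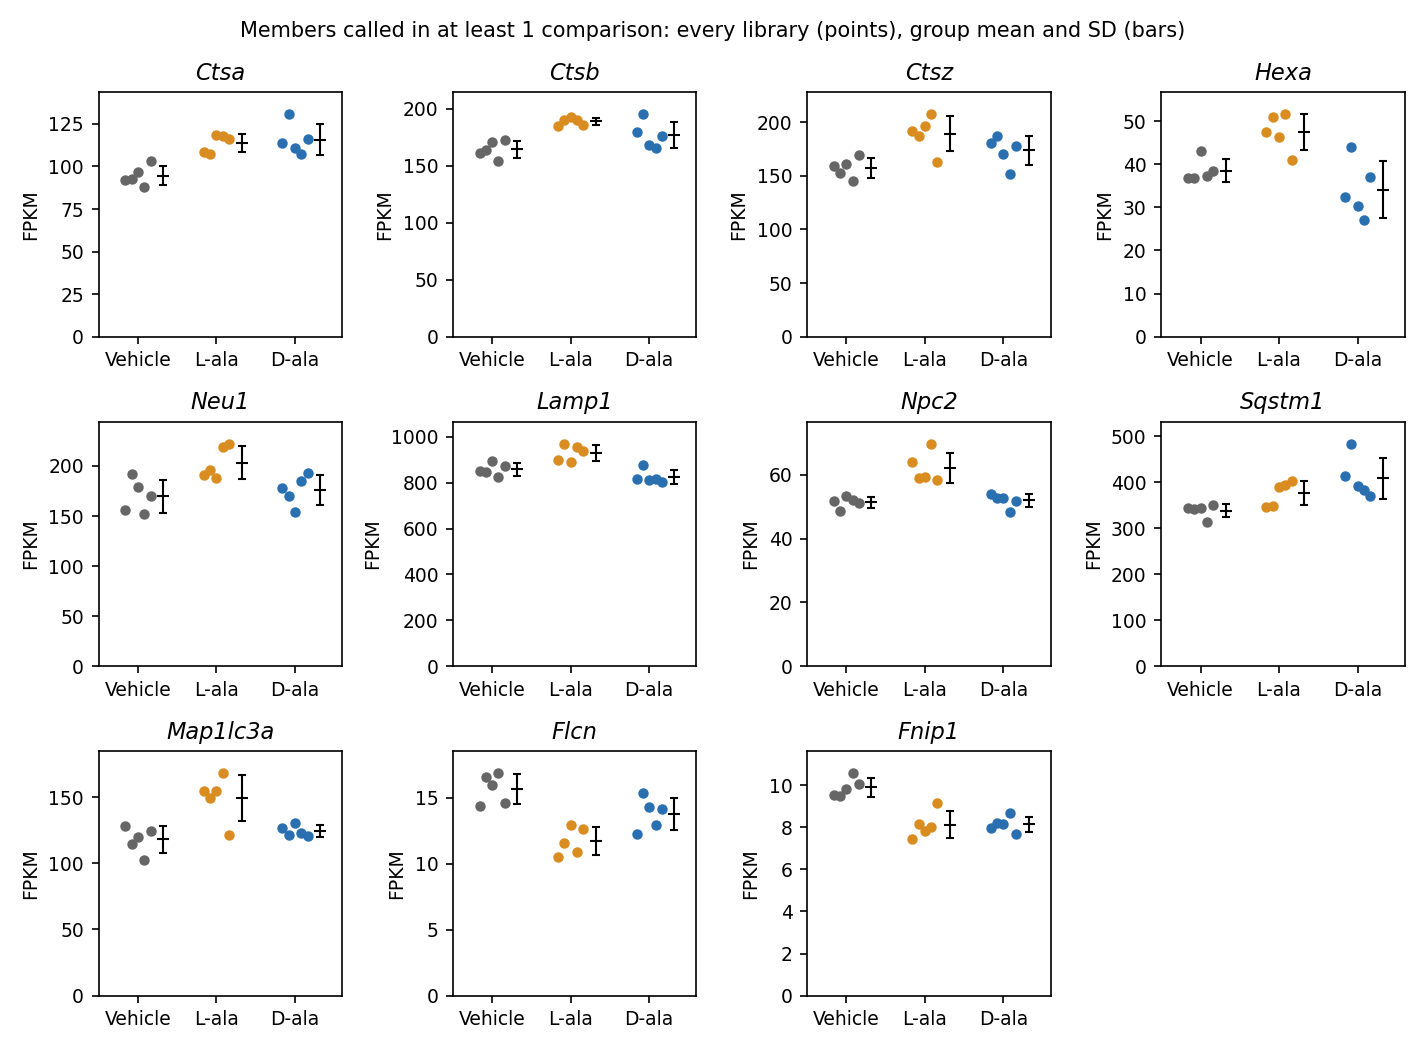
FPKM per library (linear axes from 0) of the genes called in any comparison, with 5 points per group and a bar at the group mean. Ctsa is higher in all libraries of both amino acids, Fnip1 is lower in both, and Flcn is lowest with L-ala at 10.5 to 12.9 FPKM.

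Among the 5 glycosidases, which strip sugars from glycolipids and glycoproteins, Neu1 rose with L-ala and Hexa differed between the isomers. Hexa, the alpha subunit of beta-hexosaminidase, which degrades the ganglioside GM2 (chromosome 9, 59539540 to 59565109, plus strand), was at 36.9, 36.8, 43.1, 37.3 and 38.4 FPKM in vehicle. It was at 47.5, 51.0, 46.3, 51.6 and 41.02 FPKM with L-ala and at 32.3, 43.9, 30.3, 26.96 and 36.98 FPKM with D-ala. The vehicle mean of 38.5 FPKM lay between the other 2, and D-ala library 2 was the one D-ala library that reached the L-ala range. The mean was 34.1 ± 6.57 FPKM with D-ala and 47.5 ± 4.26 with L-ala (SD, n = 5), a log2 difference of -0.48 (SE 0.10, limma adjusted p = 0.00837), the largest among the 29, and it was called in all 26 alternatives. Against vehicle neither isomer passed, with 0.29 for L-ala (SE 0.10, adjusted p = 0.0705) and -0.19 for D-ala (SE 0.10, adjusted p = 0.259). The L-ala value passed without L-ala library 5 (adjusted p = 0.0287), D-ala library 2 (0.0352) or D-ala library 4 (0.0493), and with only the 2 groups fitted (0.0396).

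Neu1, a sialidase that removes terminal sialic acid (chromosome 17, 34931253 to 34935953, plus strand), was at 156.0, 192.2, 179.3, 152.3 and 170.0 FPKM in vehicle. With L-ala it was at 191.3, 195.6, 188.0, 219.3 and 222.2 FPKM, and with D-ala at 177.7, 169.7, 154.5, 185.2 and 192.7 FPKM. The vehicle and L-ala ranges overlapped through vehicle library 2. The log2 fold change with L-ala was 0.26 (SE 0.077, limma adjusted p = 0.0426), and with D-ala 0.051 (SE 0.077, adjusted p = 0.725). The L-ala call was near the threshold. It was lost without vehicle library 1 (0.0864), 4 (0.119) or 5 (0.0562), L-ala library 1 (0.0608), 2 (0.0527) or 4 (0.11) or D-ala library 1 (0.0545). Quantile normalization (0.515), no filter (0.0603), a fit of the 2 groups alone (0.0701) and removal of the GC trend (0.0652) also ended it. Neu1 differed between D-ala and L-ala by -0.21 (SE 0.077, adjusted p = 0.0819). That difference was called with the length trend removed (-0.25, 0.0377) and with both trends removed (-0.28, 0.0251). The beta-galactosidase Glb1, the beta-glucuronidase Gusb and the alpha-galactosidase Gla, whose loss causes Fabry disease, passed no test in the main fit. Without L-ala library 3, Gusb was called lower with D-ala than with L-ala (-0.29, adjusted p = 0.0486). Glb1 had log2 fold changes of 0.15 with D-ala (adjusted p = 0.189) and 0.10 with L-ala (adjusted p = 0.333).

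Among the 5 membrane, cholesterol and channel genes, Npc2 rose with L-ala, and Npc2 and Lamp1 were lower with D-ala than with L-ala. Npc2, a soluble carrier that hands cholesterol to Npc1 inside the lysosome (chromosome 12, 84754562 to 84773152, minus strand), was at 52.0, 48.7, 53.4, 52.1 and 51.3 FPKM in vehicle. It was at 64.2, 59.2, 59.4, 69.8 and 58.5 FPKM with L-ala and at 54.1, 52.9, 52.9, 48.5 and 51.8 FPKM with D-ala. All 5 L-ala libraries lay above all 10 others. The log2 fold change with L-ala was 0.27 (SE 0.054, limma adjusted p = 0.0105), and D-ala differed from L-ala by -0.25 (SE 0.054, adjusted p = 0.00901). With D-ala Npc2 differed from vehicle by 0.014 (interval -0.10 to 0.13, adjusted p = 0.907). The difference between isomers was called in all 26 alternatives, and the L-ala rise in all but quantile normalization (0.15, adjusted p = 0.0657).

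Lamp1, a glycoprotein that lines the inner face of the lysosomal membrane (chromosome 8, 13159161 to 13175338, plus strand), was at 850.3, 846.6, 894.6, 825.8 and 872.6 FPKM in vehicle. With L-ala it was at 900.5, 970.2, 891.4, 957.5 and 937.8 FPKM, and with D-ala at 818.4, 878.1, 811.1, 818.1 and 804.7 FPKM. The D-ala and L-ala ranges did not meet, and vehicle overlapped both. D-ala was 0.17 lower than L-ala on the log2 scale, a log2 difference of -0.17 (SE 0.048, limma adjusted p = 0.0283). Against vehicle the values were 0.12 with L-ala (adjusted p = 0.111) and -0.055 with D-ala (adjusted p = 0.516). The call between isomers was lost without L-ala library 2 (0.0627) or 4 (0.0593) and without D-ala library 1 (0.0622), 3 (0.0665), 4 (0.0568) or 5 (0.0567). It was lost with only these 2 groups fitted (0.0672) and, with a difference of -0.037, under quantile normalization (0.652). The related Lamp2, the cholesterol exporter Npc1 and the calcium channel Mcoln1 passed no test. Npc1, at 3.69 to 4.84 FPKM in vehicle and 4.62 to 5.28 with D-ala, came nearest against vehicle (log2 fold change 0.16, SE 0.070, adjusted p = 0.16).

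Among the 6 autophagy genes, the cargo receptor Sqstm1 rose with D-ala and the lipid-conjugated Map1lc3a rose with L-ala. Sqstm1 (p62), which carries ubiquitinated cargo into autophagosomes and is also a target of the oxidative stress factor NRF2 (chromosome 11, 50199366 to 50210827, minus strand), was at 343.0, 340.6, 343.2, 312.7 and 350.6 FPKM in vehicle. It was at 345.7, 349.0, 388.5, 393.5 and 403.1 FPKM with L-ala and at 413.0, 483.5, 392.0, 382.8 and 369.2 FPKM with D-ala. All D-ala libraries lay above all vehicle libraries, and L-ala overlapped both groups. The mean was 408.1 ± 45.1 FPKM with D-ala and 338.0 ± 14.6 in vehicle (SD, n = 5), which is 0.27 on the log2 scale (SE 0.072, limma adjusted p = 0.0252). With L-ala it was 0.15 (SE 0.072, adjusted p = 0.165), and the isomers differed by 0.11 (interval -0.037 to 0.27, adjusted p = 0.29). The D-ala rise was not called without vehicle library 4 (0.0727), D-ala library 1 (0.0562) or D-ala library 2 (0.0548). Under quantile normalization Sqstm1 was higher with D-ala than with L-ala (0.27, adjusted p = 0.0179).

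Map1lc3a, one of the LC3 proteins that are joined to the autophagosome membrane (chromosome 2, 155276297 to 155278073, plus strand), was at 128.5, 114.4, 119.9, 102.7 and 124.4 FPKM in vehicle. With L-ala it was at 154.8, 149.3, 154.7, 168.0 and 121.1 FPKM, and with D-ala at 126.9, 121.4, 130.4, 122.6 and 120.4 FPKM. L-ala library 5 lay with the other groups, and the remaining 4 L-ala libraries lay above all others. The log2 fold change with L-ala was 0.34 (SE 0.078, limma adjusted p = 0.018), and it was lost without vehicle library 4 (0.0581) or L-ala library 4 (0.0525) and under quantile normalization (0.0887). D-ala was lower than L-ala by a log2 difference of -0.26 (SE 0.078, adjusted p = 0.0393). That second call did not pass in 14 of 26 alternatives, among them the removal of any one L-ala library but library 5 (adjusted p = 0.0659 to 0.108) or of any one D-ala library (0.0576 to 0.0747). Its adjusted p was 0.135 with the length trend removed and 0.102 under quantile normalization. The LC3 relatives Map1lc3b and Gabarapl1, the initiating kinase Ulk1 and the phosphoinositide binder Wipi1 passed no test. Gabarapl1 was at 752.1 to 875.7 FPKM in vehicle, 759.9 to 890.9 with L-ala and 724.0 to 796.2 with D-ala, and quantile normalization alone called it lower, by -0.25 with L-ala (adjusted p = 0.0101) and -0.15 with D-ala (0.0452). Map1lc3b was likewise called lower with D-ala only under quantile normalization (-0.20, adjusted p = 0.0311) and with length and GC trends both removed (-0.18, adjusted p = 0.0428).

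The folliculin complex held both falls. Folliculin and its partners Fnip1 and Fnip2 form a GTPase activator for RagC and RagD, and the active Rag pair presents TFEB to mTORC1. Flcn (chromosome 11, 59791408 to 59810016, minus strand) was at 14.4, 16.5, 15.96, 16.9 and 14.6 FPKM in vehicle. It was at 10.5, 11.6, 12.9, 10.9 and 12.6 FPKM with L-ala and at 12.3, 15.3, 14.3, 12.9 and 14.1 FPKM with D-ala. The L-ala libraries lay below all vehicle libraries, and D-ala overlapped both. The mean fell from 15.7 ± 1.14 to 11.7 ± 1.06 FPKM with L-ala (SD, n = 5), which is -0.39 on the log2 scale (SE 0.072, limma adjusted p = 0.00638), and the call held in all 26 alternatives. With D-ala the value was -0.17 (SE 0.072, adjusted p = 0.134). D-ala exceeded L-ala by 0.22 (SE 0.072, interval 0.068 to 0.37), at an adjusted p of 0.0522 that went under the threshold in 4 alternatives: without L-ala library 3 (0.0451), L-ala library 5 (0.0274) or D-ala library 1 (0.0432), and with a stricter filter (0.0493).

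Fnip1 (chromosome 11, 54438199 to 54518235, plus strand) was at 9.51, 9.46, 9.83, 10.6 and 10.1 FPKM in vehicle. With L-ala it was at 7.42, 8.17, 7.81, 8.02 and 9.13 FPKM, and with D-ala at 7.95, 8.20, 8.17, 8.67 and 7.70 FPKM. No library of either amino acid reached the lowest vehicle library. Fold changes on the log2 scale were -0.25 with D-ala (SE 0.058, limma adjusted p = 0.0105) and -0.26 with L-ala (SE 0.058, adjusted p = 0.0155). The isomers differed by 0.006 (interval -0.12 to 0.13, adjusted p = 0.957). Fnip1 has the longest transcript of the 29, at 6.324 kb, and its calls moved with the removal of length and GC trends. The D-ala fall was -0.16 with the GC trend removed (adjusted p = 0.0625) and -0.14 with both trends removed (0.0545). The L-ala fall was -0.16 with the length trend removed (0.0697), -0.15 with both removed (0.067), and was also not called without vehicle library 4 (0.0517). The Rag GTPase genes Rragc and Rragd passed no test against vehicle. Rragc was at 32.8 to 35.4 FPKM with L-ala and 29.9 to 32.6 with D-ala, ranges that did not meet, with a log2 difference of -0.13 (SE 0.050, adjusted p = 0.0812).

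Length went with the L-ala differences in the whole table. Across the 11781 tested genes the log2 fold change of L-ala against vehicle had a Spearman correlation of -0.46 with transcript length, and across the 29 it was -0.27. Genes are not independent and share libraries, so no p is given. For D-ala against L-ala the values were 0.39 and 0.38, and for D-ala against vehicle -0.07 and 0.07. After each library's length trend was removed, the correlation across the 29 for L-ala was 0.07. In that setting Ctsa (0.30), Ctsb (0.27), Neu1 (0.31) and Npc2 (0.29), all at 3 kb or longer, had larger L-ala fold changes on the log2 scale than before. The short Map1lc3a (0.871 kb) went from 0.34 to 0.18 (limma adjusted p = 0.0394) and Ctsz from 0.26 to 0.16 (0.0556). Flcn was little affected, at -0.39.

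**Figure D4:**
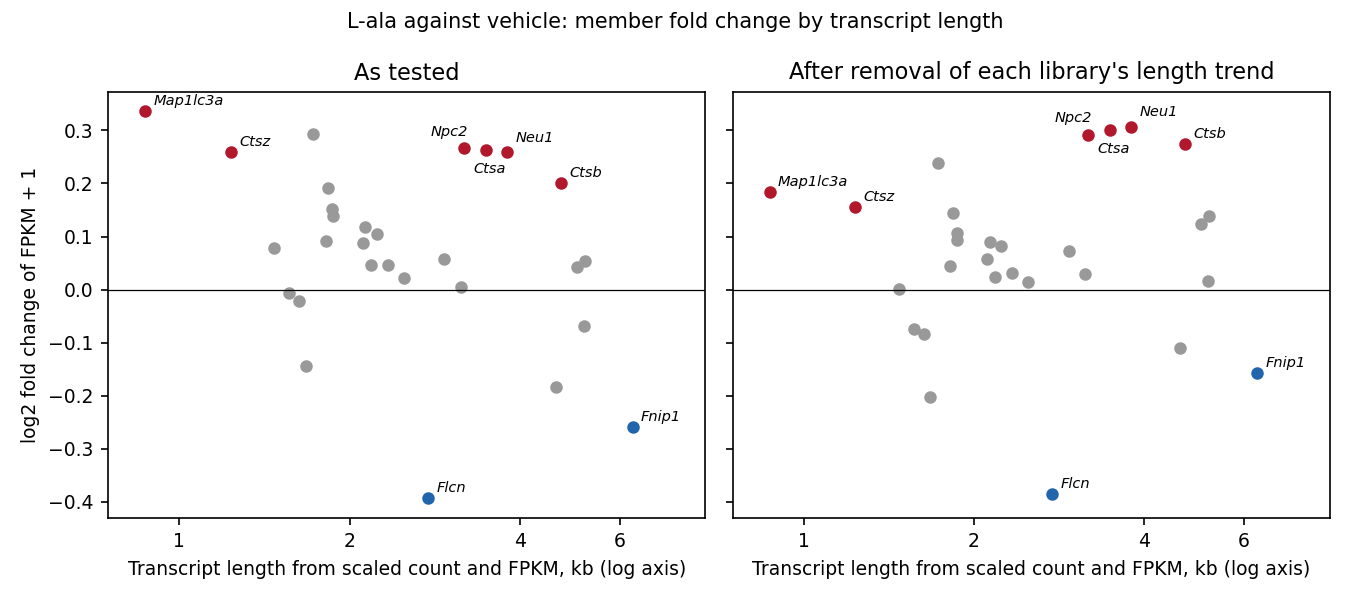
log2 fold change of L-ala against vehicle for the 29 genes over transcript length in kb (log axis), as tested (left) and after removal of each library's length trend (right), with genes called as tested in red (up) and blue (down). Map1lc3a, the shortest, moves from 0.34 to 0.18, and Flcn stays at -0.39.

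After the group means were removed, the median Pearson correlation over their 406 pairs was 0.161 (quartiles -0.111 and 0.40), beside 0.000 (quartiles -0.248 and 0.25) over all pairs of tested genes. These are descriptions over 15 libraries that share depth and composition. The closest pairs were Ctsa with Ctsb at 0.881, Ctsh with Lamp2 at 0.851, Ctsa with Sqstm1 at 0.828 and Ctsz with the channel Mcoln1 at 0.826. At the other end, Fnip1 ran opposite to Map1lc3a (-0.663) and Ctsz (-0.654). Lamp1 had the highest mean correlation with the other 28 genes (0.346) and Mitf the lowest (-0.173), while Tfeb (0.036) and Tfe3 (0.031) stood near 0. D-ala library 2 was the highest of its group for 15 of the 29 genes (24.5% of tested genes), L-ala library 4 for 11 (23.9%) and vehicle library 3 for 10 (17.3%), while vehicle library 4 was the lowest of its group for 11 (21.4%).

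Other genes of the pathway were counted in the same fit. For all tested genes, the shares were 6.53% up and 4.92% down with D-ala, and 6.48% and 4.53% with L-ala. Between the isomers, 7.01% were higher and 6.66% lower with D-ala. These shares stand beside every list counted below. Of 40 further lysosomal enzymes and activators, 6 rose and 3 fell with D-ala, 2 rose with L-ala, and 1 was higher and 4 lower with D-ala than with L-ala. The hyaluronidase Hyal1 rose from 1.81 ± 0.657 to 3.91 ± 0.905 FPKM with D-ala (log2 fold change 0.81, limma adjusted p = 0.00273) and exceeded its L-ala level of 1.60 FPKM (0.90, adjusted p = 0.00186). The protease Ctss, best known from antigen-presenting cells, fell from 9.66 ± 2.44 to 4.62 ± 1.25 FPKM with D-ala (-0.93, adjusted p = 0.00701). The serine carboxypeptidase Scpep1 rose with D-ala (0.29, adjusted p = 0.0113), and the GM2 activator Gm2a rose with L-ala (0.24, adjusted p = 0.019). Of 24 tested lysosomal membrane proteins, 1 fell with D-ala, the transporter Slc15a4 (-0.37, adjusted p = 0.0116), and 2 rose and 1 fell with L-ala. The amino acid transporter Slc36a1 was among 3 that were higher with D-ala than with L-ala (0.28, adjusted p = 0.0175), and Slc15a4 was the 1 that was lower (-0.32, adjusted p = 0.0249). The calls against vehicle of Hyal1, Ctss, Scpep1 and Slc15a4, and that of Hyal1 between the isomers, held in all 26 alternatives. That of Gm2a was lost without vehicle library 4 (0.063) or L-ala library 4 (0.0525) and under quantile normalization (0.231), that of Slc36a1 with both trends removed (0.0881), and that of Slc15a4 between the isomers without L-ala library 2, 3 or 4 or D-ala library 2 or 3 (0.0525 to 0.0581).

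Of the 22 subunits of the V-ATPase, the proton pump that acidifies lysosomes, 8 rose with L-ala and none fell. Of all tested genes, 6.48% rose and 4.53% fell with L-ala. The median log2 fold change of the 22 subunits was 0.17, beside 0.007 for all tested genes, with 21 of 22 higher. Atp6v1b2 rose from 195.4 ± 14.4 to 235.3 ± 17.02 FPKM (0.27, limma adjusted p = 0.0168). With D-ala 3 rose, among them Atp6v1b1, the subunit of intercalated cells (0.29, adjusted p = 0.0275). Between the isomers 2 were lower with D-ala, led by Atp6v0e (-0.35, adjusted p = 0.0121), which was not called with the length trend removed (-0.17, 0.062) or with both trends removed (0.101). Atp6v1b2 was not called without vehicle library 4 (0.0516), nor Atp6v1b1 without vehicle library 4 or 5 or D-ala library 1, 2 or 4 (0.0502 to 0.066). The 8 rises with L-ala were 0 under quantile normalization, 3 with the length trend removed and 1 with only the 2 groups fitted. They were 2 without vehicle library 1, vehicle library 2, L-ala library 1 or L-ala library 3, 0 without vehicle library 4, 4 without L-ala library 2 and 1 without L-ala library 4. The 3 rises with D-ala were 1 under quantile normalization, where 1 subunit was also called down, and 1 with the GC trend removed, and Atp6v1b1 was not called in either (adjusted p = 0.098 and 0.0524) nor with both trends removed (0.0638). They were 0 without vehicle library 4 or D-ala library 2, and 1 without vehicle library 1 or 5 or D-ala library 1 or 4.

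Of 40 further genes of autophagosome formation and fusion, none rose and 3 fell with D-ala, while 3 rose and 3 fell with L-ala. Atg14, which directs the lipid kinase VPS34 to new autophagosomes, fell from 7.86 ± 0.522 to 5.60 ± 0.720 FPKM with D-ala (-0.43, limma adjusted p = 0.00209) and to 5.31 ± 0.354 FPKM with L-ala (-0.49, adjusted p = 0.00298). The kinase Ulk2 (-0.25, adjusted p = 0.00939) and its scaffold Rb1cc1 (-0.27, adjusted p = 0.0262) fell with D-ala, the latter not without vehicle library 2 or 4 or D-ala library 2, 3 or 5 (0.057 to 0.0779), nor with the GC trend (0.0991) or both trends (0.0971) removed. The membrane protein Vmp1 rose with L-ala (0.55, adjusted p = 0.0184), but not without vehicle library 4 (0.0593) or L-ala library 4 (0.0535). The calls of Atg14 and Ulk2 held in all 26 alternatives. Between the isomers 4 were higher with D-ala, led by the lipid transfer protein Atg2a (0.31, adjusted p = 0.015), and 3 were lower, led by Gabarap (-0.32, adjusted p = 0.0219). Atg2a was not called with the length trend (0.0558) or both trends (0.0626) removed, nor Gabarap under quantile normalization (0.0705), with only the 2 groups fitted (0.0523) or without L-ala library 3 (0.0526), L-ala library 4 (0.0596) or D-ala library 4 (0.0517). Of 13 selective autophagy receptors, 2 mitophagy receptors, Fundc1 (-0.38, adjusted p = 0.00611) and Bnip3l (-0.22, adjusted p = 0.00833), fell with D-ala, Bnip3l not with the GC trend removed (-0.16, 0.0648). Both were also lower than with L-ala (-0.40, adjusted p = 0.00591, and -0.30, adjusted p = 0.00162). The receptor Optn was the 1 of the 13 called higher with D-ala than with L-ala (0.25, adjusted p = 0.0332), a call lost in 8 of 26 alternatives. None of the 13 was called for L-ala against vehicle. There 1 passed an unadjusted p under 0.05, beside 3590 of the 11781 tested genes.

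Of 30 genes of the Rag, Ragulator, mTORC1 and GATOR complexes, 1 rose with D-ala, the GATOR1 subunit Nprl3 (0.20, limma adjusted p = 0.0332), which was not called without vehicle library 3, 4 or 5 or D-ala library 1, 3, 4 or 5 (0.0537 to 0.0808), nor with the GC trend (0.0765) or both trends (0.0702) removed. With L-ala 3 rose and 1 fell. The mTORC1 inhibitor Tsc1 fell from 5.26 ± 0.439 to 3.94 ± 0.286 FPKM (-0.34, adjusted p = 0.00974), and the Ragulator subunit Lamtor2 rose (0.31, adjusted p = 0.0102). Tsc1 held in all 26 alternatives, and Lamtor2 was 0.067 with the length trend removed (adjusted p = 0.494) and not called under quantile normalization (0.119) or with both trends removed (0.492). Between the isomers, 3 of the 30 were higher with D-ala and 1 was lower. The kinase gene Mtor was higher with D-ala than with L-ala (0.42, adjusted p = 0.00901) in the main test and all 26 alternatives. Tsc1 was also higher (0.225, adjusted p = 0.0384), a call lost in 12 alternatives. The Ragulator subunit Lamtor4 was the 1 that was lower (-0.38, adjusted p = 0.0268), a call lost in 6. Of 9 tested genes otherwise linked to TFEB, the coactivator Ppargc1a rose (0.25, adjusted p = 0.0149) and the calcineurin subunit Ppp3cb fell (-0.29, adjusted p = 0.0173) with D-ala, and Hif1a fell with L-ala (-0.24, adjusted p = 0.0225). Hif1a was not called without vehicle library 4 (0.0713), L-ala library 1 (0.0518) or L-ala library 4 (0.0559) or with the length trend removed (0.0735), and Ppp3cb not with the GC trend removed (0.0559). Between the isomers, 1 of the 9 was higher with D-ala, Trpm4 (0.34, adjusted p = 0.016), in all 26 alternatives as well. The 1 that was lower was Ppp3cb (-0.23, adjusted p = 0.0463), a call lost in 16 alternatives.

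Markers of some other cells moved between the groups as well. The summed level of 14 macrophage and dendritic cell markers was 74.3 to 102.6 FPKM in vehicle, 65.1 to 89.6 with L-ala and 53.6 to 74.4 with D-ala. Their mean log2 level was lower with D-ala than in vehicle (exact two-sided permutation p = 0.0238), and with D-ala Lyz2 fell from 14.6 ± 1.55 to 7.29 ± 0.936 FPKM (limma adjusted p = 2.66e-05). Ctss, which such cells express, fell in the same comparison. The 8 matched neutrophil markers summed to 0.765 to 7.62 FPKM in vehicle, 13.1 to 35.02 with L-ala and 2.196 to 11.3 with D-ala. L-ala differed from either other group at an exact permutation p of 0.00794, the smallest that 5 against 5 can give two-sided. S100a8 and S100a9, the 2 that passed the filter on low values, rose with L-ala (log2 fold changes of 2.03 and 1.80, limma adjusted p = 0.0231 and 0.0204), and Camp was at 0 in all libraries. Red blood cell markers, 7 in all, summed to 16.4 to 255.4 FPKM in vehicle, 262.2 to 744.6 with L-ala and 35.2 to 455.9 with D-ala (L-ala against vehicle and against D-ala, exact permutation p = 0.0238 in both). Endothelial markers, 7 in all, were lower with both amino acids (exact permutation p = 0.0317 for each). Lymphocyte markers, none of which passed the filter on low values, were lower with D-ala than in vehicle or with L-ala (exact permutation p = 0.0159 and 0.0317). The mean log2 levels of adipocyte markers (exact permutation p = 0.238 to 0.96) and of other kidney epithelial markers (0.571 to 0.857) passed in no comparison. Single epithelial markers did move, in opposite directions. Against vehicle, Slc12a3 rose (0.49, limma adjusted p = 0.00581) and Aqp2 fell (-0.43, 0.00691) with D-ala, and Umod fell with L-ala (-0.43, 0.0395). The epithelial list summed to 2293 to 2631 FPKM in vehicle, 1790 to 2210 with L-ala and 1880 to 2519 with D-ala. The part of these cells in the results above was not tested.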

How the data were processed

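Kidney messenger RNA of 15 samples was sequenced after TRIzol extraction with a stranded TruSeq messenger RNA kit, per the labels' protocols. TopHat2 2.0.13, Bowtie2 2.2.3, SAMtools 0.1.19 and mm10 are named, without roles, per the submitters' processing notes. No source used here names the quantifier, its annotation or its use of strand. The deposited table gives FPKM per gene and library, per the file headers, and these were tested. The deposited log2 processed signal lay within 0.0012 of log2 FPKM centred per gene over 10664 genes and was not tested. The deposited count column was treated as a score: gaps or doubled values among its low numbers, as whole counts rescaled and rounded would leave, were found in 11 libraries (correlation with the pattern of the best factor 0.535 to 0.928, at least 0.5 required) and not in 4, whose factor is unknown. How it was made is not given in the sources used here, and no count model was used. Divided by the factor it gave an estimated depth for the 11 (7.57 to 10.9 M reads) and, divided by FPKM, transcript length. FPKM carry no counting interval.

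Genes with at least 1 FPKM in 5 libraries were tested as log2(FPKM + 1), with 1 mean per group over 15 libraries, by limma 3.58.1 in R 4.3.3 (empirical Bayes with trend, robust). Fold changes on this scale understate those of low genes. P-values were Benjamini-Hochberg adjusted over 11781 genes, with calls under 0.05 and intervals at 95%. The fit was tested on simulated data. No 2 libraries were duplicates: the lowest chi-square per gene within a group was 4.91, where 1 is sampling noise, with the unknown factors taken as 1. The members and gene lists were chosen with earlier results of these data known. Every member called in any comparison is named with its libraries, Tfeb, Tfe3 and Mitf always, and of other lists at most the 3 called genes of smallest p per comparison. Of list genes, 279 matched directly, 7 by an older symbol and 1 not. GC content came from GENCODE M21 transcripts for 96.1% of tested genes. Alternatives were the pseudocount, filter, scaling, quantile normalization, moderation, groups fitted, length and GC trends, and leaving out each library. Removing both trends together was chosen after seeing the data.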

Additional observations from a re-analysis of the deposited data

Results flagged for a closer look

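In 6 of the 87 sets of 5 libraries (29 genes in 3 groups), 1 library stood far from the other 4 by Dixon's criterion, which flags about 1 set in 20 by chance. D-ala library 2 was the highest of its group for the protease Ctsd, at 472.8 FPKM with the next library at 389.9, and for Lamp1, at 878.1 FPKM with the next at 818.4. Vehicle library 3 was highest for Hexa, at 43.06 FPKM with the next at 38.36. Vehicle library 4 was lowest for Sqstm1, at 312.7 FPKM with the next at 340.6, and the D-ala rise of Sqstm1 was not called without it (adjusted p = 0.0727). Vehicle library 5 was highest for Map1lc3b, at 87.07 FPKM with the next at 78.04. L-ala library 4 was highest for Gabarapl1, at 890.9 FPKM with the next at 796.2.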

How the results depend on the processing

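No paired analysis was possible because the replicate numbers are accession order and the labels pair no samples. Each of the 87 results on the 29 genes was recomputed under 26 alternatives. Of the 2262 values, 62 lost a call, 20 gained one and 84, in 33 results, had another sign than as tested; none of the 84 was called in either fit. Other pseudocounts (0.1 and 0.5), median-of-ratios scaling and moderation without the trend changed no call among the 29. Under quantile normalization there were 3 falls among the 29 for D-ala against vehicle (in place of 1), 7 rises among the other pathway genes for D-ala against vehicle (in place of 11), 18 falls among the other pathway genes for D-ala against vehicle (in place of 10), 0 rises among the 29 for L-ala against vehicle (in place of 6), 2 rises among the other pathway genes for L-ala against vehicle (in place of 18), 1 rise among the 29 for D-ala against L-ala (in place of 0), 2 falls among the 29 for D-ala against L-ala (in place of 4) and 8 falls among the other pathway genes for D-ala against L-ala (in place of 14). With the GC trend removed there were 0 falls among the 29 for D-ala against vehicle (in place of 1), 6 rises among the other pathway genes for D-ala against vehicle (in place of 11) and 6 falls among the other pathway genes for D-ala against vehicle (in place of 10). With the length trend removed there were 1 fall among the 29 for L-ala against vehicle (in place of 2), 10 rises among the other pathway genes for L-ala against vehicle (in place of 18) and 8 rises among the other pathway genes for D-ala against L-ala (in place of 13). With both trends removed, chosen after seeing the data, there were 1 fall among the 29 for L-ala against vehicle (in place of 2), 10 rises among the other pathway genes for L-ala against vehicle (in place of 18) and 7 rises among the other pathway genes for D-ala against L-ala (in place of 13). With only the compared groups fitted there were 5 rises among the other pathway genes for L-ala against vehicle (in place of 18), 2 falls among the 29 for D-ala against L-ala (in place of 4), 6 rises among the other pathway genes for D-ala against L-ala (in place of 13) and 4 falls among the other pathway genes for D-ala against L-ala (in place of 14). With 1 FPKM required in all 15 libraries there was 1 rise among the 29 for D-ala against L-ala (in place of 0). Leaving out 1 library at a time gave 1 to 2 rises and always 1 fall among the 29 for D-ala against vehicle, 3 to 14 rises and 8 to 13 falls among the other pathway genes for D-ala against vehicle, 1 to 7 rises and 1 to 2 falls among the 29 for L-ala against vehicle, 1 to 27 rises and 3 to 11 falls among the other pathway genes for L-ala against vehicle, 0 to 2 rises and 2 to 4 falls among the 29 for D-ala against L-ala and 5 to 18 rises and 3 to 29 falls among the other pathway genes for D-ala against L-ala. The share of rises among all called genes under quantile normalization was 47% in place of 57% for D-ala against vehicle and 40.7% in place of 58.8% for L-ala against vehicle, and no scaling moved the median of all tested genes by 0.1. Under quantile normalization the log2 fold changes of changed sign were, for D-ala against vehicle Ctsl -0.053, Gla 0.013, Neu1 -0.045, Npc2 -0.041, Mcoln1 -0.036, Ulk1 -0.012 and Rragd -0.010; for L-ala against vehicle Ctsd -0.104, Ctsh -0.102, Ctsl -0.013, Glb1 -0.046, Lamp1 -0.071, Lamp2 -0.113, Sqstm1 -0.041, and Rragc -0.066, as well as the pathway gene Fuca1, called as tested, at -0.005; for D-ala against L-ala Mitf -0.034, Lamp2 0.043, Gabarapl1 0.097 and Fnip1 -0.017. With the length trend removed the log2 fold changes of changed sign were, for D-ala against vehicle Ctsl -0.004 and Mcoln1 -0.007; for L-ala against vehicle Ulk1 0.016; for D-ala against L-ala Mitf -0.044, Ctsa -0.009 and Fnip1 -0.075. With the GC trend removed the log2 fold changes of changed sign were, for D-ala against vehicle Tfe3 0.000, Lamp2 0.086, Npc2 -0.006, Mcoln1 -0.030 and Ulk1 -0.026; for L-ala against vehicle Tfeb -0.013 and Tfe3 -0.019. With both trends removed the log2 fold changes of changed sign were, for D-ala against vehicle Lamp2 0.069, Npc2 -0.003, Mcoln1 -0.039, Ulk1 -0.001 and Wipi1 -0.003; for L-ala against vehicle Ctsh -0.001 and Ulk1 0.019; for D-ala against L-ala Tfe3 -0.028, Ctsa -0.044 and Ulk1 -0.020. With 1 library left out, the ranges that crossed 0 were, for D-ala against vehicle Ctsl -0.036 to 0.046, Gla -0.089 to 0.063, Mcoln1 -0.027 to 0.055, Npc2 -0.005 to 0.039, Ulk1 -0.038 to 0.038, Lamp2 -0.032 to 0.004, Tfe3 -0.016 to 0.058, Rragd -0.022 to 0.043 and Wipi1 -0.013 to 0.071; for L-ala against vehicle Tfe3 -0.044 to 0.029, Rragc -0.008 to 0.056, Gabarapl1 -0.060 to 0.004, Tfeb -0.030 to 0.095, Map1lc3b -0.031 to 0.043 and Gusb -0.021 to 0.139; for D-ala against L-ala Fnip1 -0.022 to 0.045, Rragd -0.071 to 0.001, Mitf -0.034 to 0.054, Ctsa -0.021 to 0.050 and Gla -0.145 to 0.007. Depth could be estimated for 11 libraries only, and FPKM carry no counting error. The coefficient of variation in vehicle was largest for Gla (15.3%), Mitf (14.7%), Tfeb (12.7%) and Npc1 (11.1%), and the part of depth in it was not tested. The cause of these shifts was not tested.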
